A study of Mus musculus with 12 samples.

Results

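The genes described here are the calcium release channels of the endoplasmic reticulum and the pumps and exchanger that clear calcium from the cytosol. The 10 genes are Ryr1, Ryr2, Ryr3 and Itpr1 (release channels), Atp2a2 (a pump into the endoplasmic reticulum), Atp2b1, Atp2b2, Atp2b3 and Atp2b4 (pumps across the plasma membrane) and Slc8a1 (a sodium-calcium exchanger). They were chosen by function, with results of these same arrays already known, and their rows were chosen by a platform annotation that gives exactly 1 gene symbol. At gene level 8 of the 10 genes had a row, with 9 rows in all among 23332 rows and 14847 genes with 1 symbol. At exon level 9 of the 10 genes had 412 probe sets among 229581 probe sets and 16358 genes with 1 symbol. Itpr1 was described from its probe sets only, and Atp2b1 was not analysed here.

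The arrays measured total RNA of the whole cerebellum of female mice at postnatal day 30. The 3 wild-type mice stand against 3 NMF291–/– mice, in which Rnu2-8, a U2 snRNA gene, has lost 5 nucleotides. U2 snRNA binds the branch site of an intron when the spliceosome assembles. No treatment or other allele is given for either genotype. Each mouse gave 1 array, deposited at gene level and at exon level, so the 2 tables are summaries of the same hybridisations. Values are on a log2 scale, and a difference is mutant minus wild type, so that -1 stands for a fall to 0.5 of the wild-type level.

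Release channels and clearing pumps set the size and length of a calcium signal. Ryanodine receptors open in response to calcium itself and inositol trisphosphate receptors open in response to IP3, and each lets calcium out of the endoplasmic reticulum, which the Atp2a pumps refill. Plasma membrane pumps of the Atp2b family bind calcium tightly and remove it slowly, while sodium-calcium exchangers move more of it at higher concentrations. In the cerebellum, Purkinje cells are known for abundant Itpr1, and loss of Itpr1 or of Atp2b2 causes ataxia in mice.

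Promoter sequences were available for 6 of the 10 genes in RefSeq (GRCm38.p6). Those of Ryr2, Atp2b4 and Slc8a1 are shown because the gene-level rows of these genes were lower in the mutant, and that of Ryr1 because it is the ryanodine receptor whose row did not pass the test. Each runs 5′ to 3′ on the strand of its gene, from 250 bases before the start to 50 after it. Capitals mark E-boxes, CANNTG, the motif bound by basic helix-loop-helix factors, which reads the same on both strands.
Ryr2: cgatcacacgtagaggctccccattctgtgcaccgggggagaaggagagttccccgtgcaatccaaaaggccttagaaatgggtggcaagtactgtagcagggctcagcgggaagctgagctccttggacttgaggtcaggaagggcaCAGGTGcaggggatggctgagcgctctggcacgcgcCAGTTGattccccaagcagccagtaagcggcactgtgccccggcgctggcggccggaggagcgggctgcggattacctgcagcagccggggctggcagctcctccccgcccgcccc
Atp2b4: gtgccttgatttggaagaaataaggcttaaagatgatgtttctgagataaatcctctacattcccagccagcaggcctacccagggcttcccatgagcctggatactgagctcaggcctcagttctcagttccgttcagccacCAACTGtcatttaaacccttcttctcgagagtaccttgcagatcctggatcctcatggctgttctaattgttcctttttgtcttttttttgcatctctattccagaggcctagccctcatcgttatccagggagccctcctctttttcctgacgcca
Slc8a1: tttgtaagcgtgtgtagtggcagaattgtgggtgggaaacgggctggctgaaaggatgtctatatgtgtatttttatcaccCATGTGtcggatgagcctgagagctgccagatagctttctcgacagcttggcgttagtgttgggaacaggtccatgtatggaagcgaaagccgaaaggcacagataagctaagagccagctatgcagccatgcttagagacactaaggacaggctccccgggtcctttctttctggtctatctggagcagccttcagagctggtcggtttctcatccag
Ryr1: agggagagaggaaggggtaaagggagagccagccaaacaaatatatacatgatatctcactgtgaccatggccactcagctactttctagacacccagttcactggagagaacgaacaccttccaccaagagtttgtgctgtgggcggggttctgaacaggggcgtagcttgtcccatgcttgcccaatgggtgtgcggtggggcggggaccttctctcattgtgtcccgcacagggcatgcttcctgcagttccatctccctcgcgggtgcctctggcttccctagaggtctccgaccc
The windows lie on the minus strand at chr13:12106896-12107195 for Ryr2, chr1:133753698-133753997 for Atp2b4, chr17:81738338-81738637 for Slc8a1 and chr7:29125102-29125401 for Ryr1. E-box matches numbered 2 in Ryr2, 1 in Atp2b4, 1 in Slc8a1 and 0 in Ryr1, and 72.3% of 32851 mouse promoters of this length hold at least 1. The GC box GGGCGG, searched on both strands, matched 2 times in Ryr2, where the matches overlap each other, 2 times in Ryr1 and 0 times in Atp2b4 and Slc8a1, against a match in 35.7% of promoters. No E-box in these windows overlaps a GC box. GC content was 65.3% for Ryr2, 56.7% for Ryr1, 50.7% for Slc8a1 and 47.7% for Atp2b4. Atp2b4 and Slc8a1 thus held the same number of each motif, and Ryr2 held more of both. The windows of Atp2b2, not shown, whose row did not pass either, held 0, 2 and 1 E-boxes and 2, 0 and 3 GC boxes. Whether these motifs bear on the differences was not tested.

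Marker genes gave the labelled tissue and its makeup. Purkinje markers averaged 11.89 to 11.92 (log2) in wild type and 11.75 to 11.88 in the mutant, with mutant 1 lowest. Of 8 measured markers 0 passed limma's test (2 at an unadjusted p under 0.05), and all 8 differences were negative. Of all 23332 gene-level rows 5368 reached that unadjusted p, and limma called 1.81% lower and 3.94% higher. Granule neuron markers averaged 12.29 to 12.35 and 12.19 to 12.27, and 1 of 7, Gabra6, fell. At an unadjusted p under 0.05 stood 2 granule neuron markers lower and 1 higher. Microglial markers averaged 8.07 to 8.17 and 8.75 to 9.28, and 6 of 9 rose. Of 7 astrocyte markers 1, Gfap, rose, and 0 of 5 oligodendrocyte, 0 of 7 endothelial and mural and 0 of 7 inhibitory interneuron markers passed it, also at an unadjusted p under 0.05. Muscle markers, 4 of 9 measured, averaged 7.72 to 7.82 and 7.72 to 7.80. Choroid plexus markers averaged 8.98 in mutant 3 against 10.28 to 10.51 on the other arrays, so called genes are also given without mutant 3. The part of these shifts in the results below was not tested. In whole tissue, fewer cells of a type and less RNA per cell cannot be told apart.

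At gene level, 4 of the 8 genes with a row were lower in the mutant and 0 were higher at an adjusted p under 0.05 by limma. They were Ryr2, Ryr3, Atp2b4 and both rows of Slc8a1, while Ryr1, Atp2a2, Atp2b2 and Atp2b3 did not pass. No further row reached an unadjusted p under 0.05. Over all gene-level rows 1.81% were called lower and 3.94% higher, and over genes with 1 symbol 2.29% and 4.21%. The split of all calls depended on scaling, 920 higher and 422 lower as deposited and 529 and 600 after median centring. Since the members were chosen with this contrast known, nothing is read from their count, and the adjusted p-values printed for them only place each row within the whole table. The plot of gene-level values by array shows all 9 rows.

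**Figure D1:**
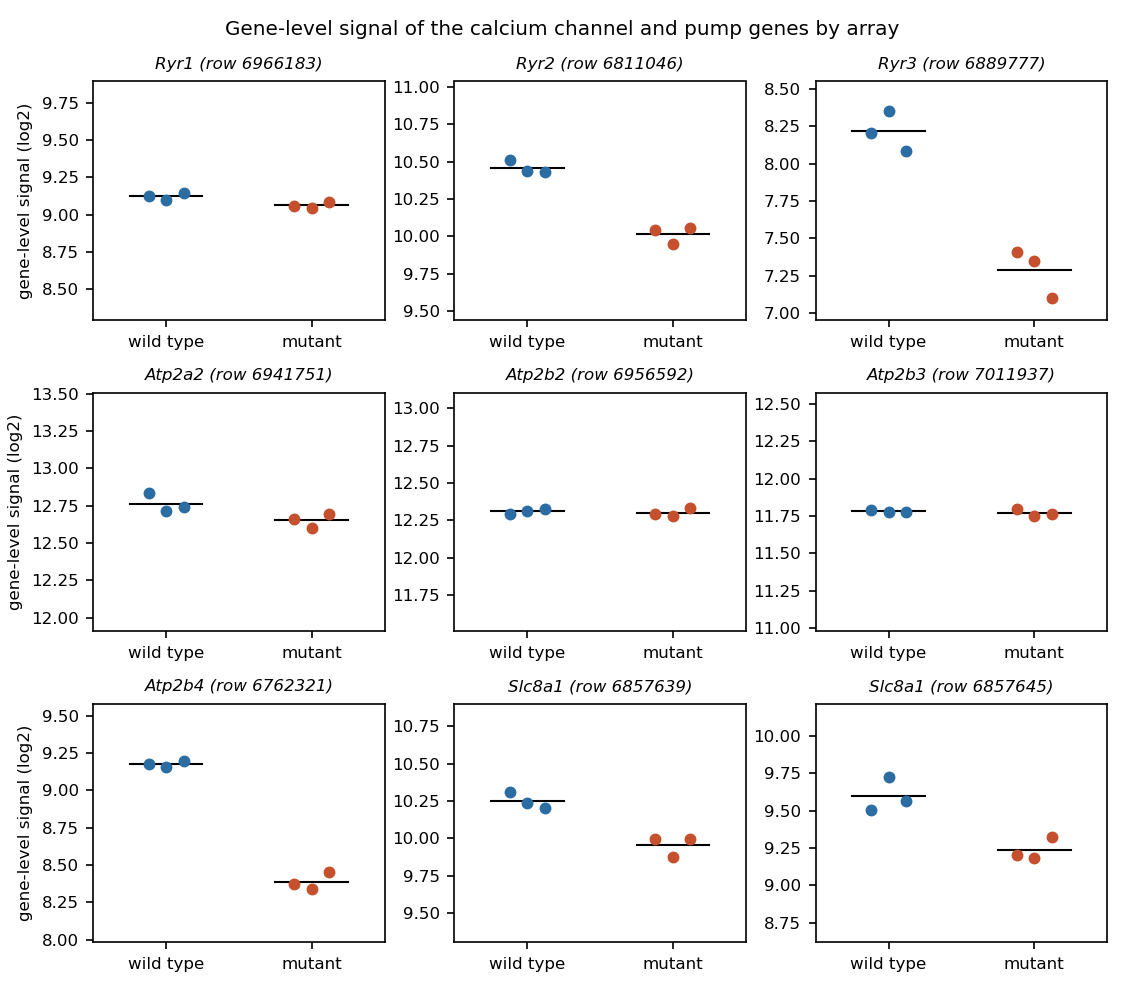
Gene-level value (log2) of each calcium gene row on the 3 wild-type and 3 mutant arrays, 1 point per array with a bar at the mean of each genotype. The mutant points of Ryr2, Ryr3, Atp2b4 and both Slc8a1 rows lie below all wild-type points, while those of Atp2b2 and Atp2b3 lie among them.

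Ryr3, the ryanodine receptor found at low amounts in brain and many other tissues, differed more than any other gene-level row of these genes. Its values were 8.21, 8.36 and 8.09 in wild type and 7.41, 7.35 and 7.10 in the mutant. Every mutant array lay below every wild-type array, with the highest mutant value well under the lowest wild-type value. The difference was -0.93 ± 0.11 (log2, SE, n = 3 per genotype), to 0.525 of the wild-type level, with an adjusted p of 0.0148 by limma. Without wild type 1 or wild type 3 the row was still called (limma adjusted p = 0.0485 and 0.0494). Without wild type 2, mutant 1, mutant 2 or mutant 3 the limma adjusted p was 0.0584, 0.0590, 0.0582 and 0.0528, at differences of -0.86, -0.99, -0.96 and -0.84.

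The 8 probe sets of Ryr3 did not move by equal amounts. Probe set 5334378 read 9.47, 9.41 and 9.08 in wild type and 7.42, 7.81 and 7.74 in the mutant, a difference of -1.67 ± 0.15 (SE). Probe set 4540937 read 8.50, 8.42 and 8.37 against 6.54, 7.15 and 6.82, a difference of -1.59 ± 0.16. In these probe sets the mutant arrays sat at 3.17-fold and 3.02-fold lower signal than wild type, a larger gap than in the gene-level row. Probe sets 4469506, 5394432 and 4433473 differed by -1.45, -1.37 and -0.84. These 5 probe sets were called, with limma adjusted p from 0.0202 to 0.0336, and in each of them the mutant arrays lay wholly lower. Of all probe sets 0.402% were called lower and 10.1% lay wholly lower. Without mutant 3 the 5 differed by -1.71 to -0.78 and 0 were called (limma adjusted p from 0.100 to 0.129). Leaving out any 1 array left 0 calls in the whole exon-level table, so this loss is not particular to mutant 3. The other 3 Ryr3 probe sets did not pass and overlapped. Probe set 4383857 differed by -0.16 ± 0.09, 5325884 by -0.23 ± 0.17 and 5133200 by -0.22 ± 0.17. Of these, 5325884 and 5133200 had low wild-type means of 6.41 and 7.06, whereas 4383857 read 9.73 ± 0.12 (SD) in wild type and 9.56 ± 0.07 (SD) in the mutant (n = 3 each). Low signal was not limited to uncalled probe sets. Averaged over all arrays, 3 Ryr3 probe sets lay below 7.06, the minimum of the filter on low values, and the called 4469506 was among them. With that filter 4 Ryr3 probe sets were called by limma. Ryr3 was not tested for exon usage, because the median of its probe sets, 7.83, lay below the minimum of 8.55 set for a gene.

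**Figure D2:**
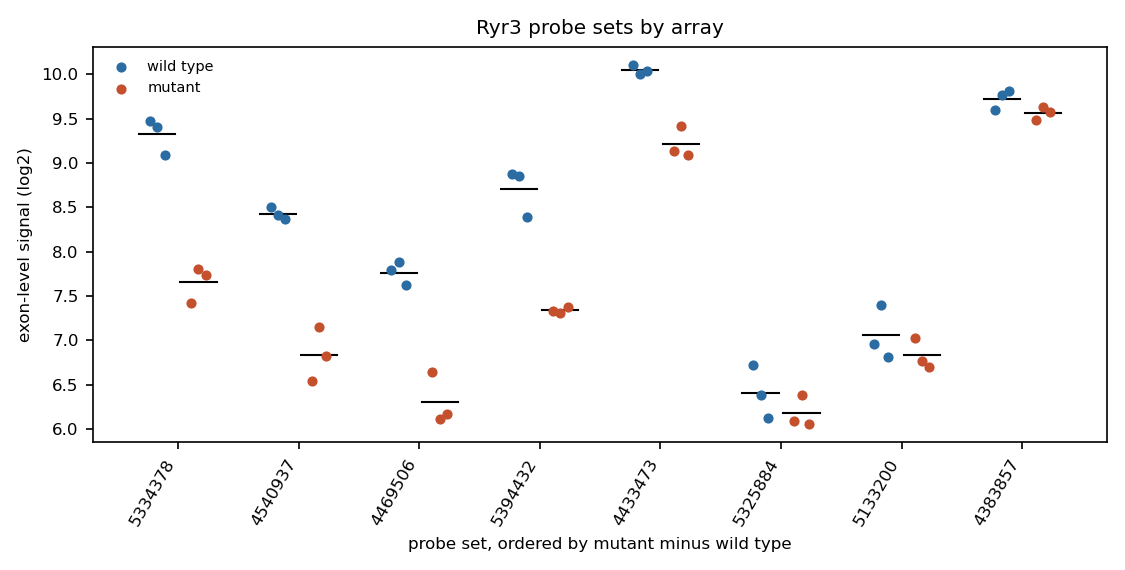
Value (log2) of each of the 8 Ryr3 probe sets on the 3 wild-type and 3 mutant arrays, 1 point per array, with a bar at the mean of each genotype. The 5 called probe sets show separate genotypes, and the genotypes overlap in 4383857, 5325884 and 5133200.

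Genes whose pattern over the 6 arrays was most like that of Ryr3 were sought among 14987 other gene-level rows with 1 symbol. The 5 highest Pearson correlations were those of Cgnl1 (0.997), Metrn (0.995), Cux2 (0.994), Crebzf (0.991) and Msh3 (0.991), and 207 rows exceeded 0.95. With 6 arrays in 2 genotypes these values describe mainly the step between genotypes that the rows share. The step differed in size, since Cgnl1 differed by -0.36 and Metrn by -0.15 where Ryr3 differed by -0.93. By limma Cgnl1 and Msh3 were called lower (adjusted p = 0.0251 and 0.0277). Metrn, Cux2 and Crebzf were not called (limma adjusted p = 0.0986, 0.0664 and 0.0788).

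Ryr2, the ryanodine receptor of heart muscle that is also widely present in neurons, was lower along the whole set of its probe sets. At gene level it read 10.51, 10.43 and 10.43 in wild type and 10.04, 9.94 and 10.05 in the mutant. The groups did not overlap, and the values within a genotype lay close together. The difference was -0.45 ± 0.05 (log2, SE, n = 3), to 0.734 of wild type, with an adjusted p of 0.0148 by limma. The call held without wild type 1 (limma adjusted p = 0.0453) and was lost at 0.0626 without wild type 2, 0.0600 without wild type 3, 0.0636 without mutant 1, 0.0581 without mutant 2 and 0.0597 without mutant 3. Across those 6 fits the difference stayed between -0.41 and -0.47.

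All 107 probe sets of Ryr2 had a negative difference, from -0.70 to -0.13 with a median of -0.46. Over the whole exon-level table the median difference was 0.02 and 46.7% of probe sets were negative. In 101 of the 107 the mutant arrays lay wholly below the wild-type arrays, against 10.1% of all probe sets, and 17 were called lower, against 0.402% of all probe sets. Probe set 5547058 read 11.62, 11.63 and 11.60 in wild type and 10.97, 11.01 and 11.05 in the mutant, a difference of -0.61 ± 0.07. Probe sets 5380122 and 5012047 differed by -0.59 ± 0.08 and -0.57 ± 0.08, and these 3 had the smallest p among the Ryr2 probe sets. Without mutant 3 the 17 called probe sets differed by -0.76 to -0.53 and 0 were called (limma adjusted p from 0.105 to 0.156). As said above, 0 probe sets of the whole table were called when any 1 array was left out. The size of the difference varied little with signal: the median was -0.41 in the 36 dimmest, -0.46 in the middle 35 and -0.48 in the 36 brightest probe sets. The probe sets share the same 6 arrays and are not replicates of the genotypes.

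**Figure D3:**
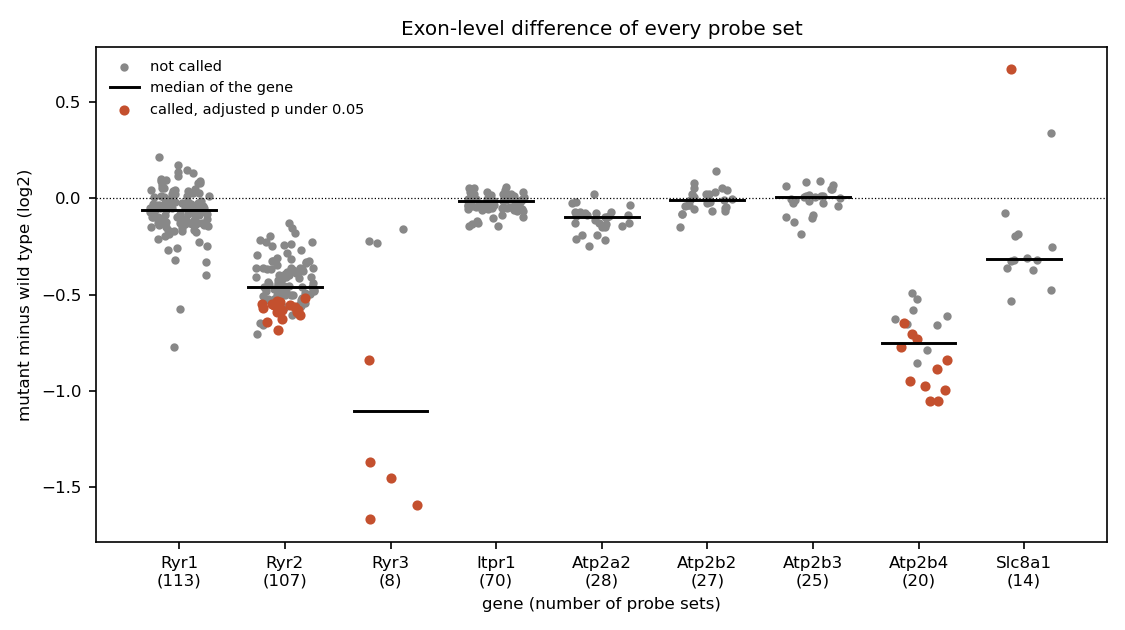
Difference between the mutant and wild-type means (log2) of each of the 412 probe sets, grouped by gene, with called probe sets marked. Probe sets of Ryr2, Ryr3 and Atp2b4 lie wholly below 0, as do 27 of the 28 of Atp2a2. Those of Itpr1, Atp2b2 and Atp2b3 lie around 0, and Slc8a1 has both signs.

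Ryr1, the ryanodine receptor of skeletal muscle that is also found in Purkinje cells, differed little. Its gene-level values were 9.12, 9.10 and 9.14 in wild type and 9.06, 9.04 and 9.08 in the mutant. The mutant arrays were again the lower ones without overlap, as in 11.1% of all rows of the table, but the gap was small. The difference was -0.06 ± 0.04 (log2, SE, n = 3; 95% interval -0.16 to 0.04), with an adjusted p of 0.441 by limma. Of its 113 probe sets 84 were negative, with a median of -0.06. In the mutant 12 lay wholly lower (10.6%), against 10.1% of all probe sets, and 0 were called by limma. An unadjusted p under 0.05 was reached by 38834 of all 229581 probe sets and by 5 of Ryr1. The probe set with the most negative difference, 5056952 at -0.77 ± 0.37, was dim and its groups overlapped. Probe set 5616511 read 8.23, 8.11 and 7.76 against 7.49, 7.26 and 7.63, a difference of -0.58 ± 0.15 that did not pass (limma adjusted p = 0.137).

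Itpr1, the inositol trisphosphate receptor that dominates in Purkinje cells, was measured by 70 probe sets. The median over them was 12.50, 12.53 and 12.53 on the wild-type arrays and 12.42, 12.49 and 12.57 on the mutant arrays. The genotypes overlapped, and the mutant arrays spread more widely around the wild-type values. Differences of single probe sets ran from -0.15 to 0.06 with a median of -0.02. Of the 70, 46 were negative, 2 lay wholly lower in the mutant, 1 wholly higher, and 0 were called by limma or reached an unadjusted p under 0.05. Among all probe sets 10.1% lay wholly lower and 14.0% wholly higher.

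Atp2a2, the SERCA2 pump that refills the endoplasmic reticulum, read 12.83, 12.71 and 12.74 in wild type and 12.66, 12.60 and 12.70 in the mutant. The mutant arrays were all lower, though mutant 3 and wild type 2 nearly touched. The difference was -0.11 ± 0.05 (log2, SE, n = 3; 95% interval -0.24 to 0.02), and the row did not pass (adjusted p = 0.288 by limma). Of its 28 probe sets 27 were negative with a median of -0.10, 12 lay wholly lower in the mutant (42.9%), against 10.1% of all probe sets, and 0 were called by limma, with 1 at an unadjusted p under 0.05.

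Among the plasma membrane pumps, Atp2b4 stood at a lower level in the mutant while Atp2b2 and Atp2b3 did not pass. Atp2b4, the pump known as PMCA4, read 9.18, 9.15 and 9.20 in wild type and 8.37, 8.34 and 8.45 in the mutant. The gap between the genotypes was several times the range within either. The difference was -0.79 ± 0.05 (log2, SE, n = 3), to 0.579 of wild type, with an adjusted p of 0.00472 by limma. It was still called when any 1 of the 6 arrays was left out, at limma adjusted p from 0.0240 to 0.0382 and differences from -0.76 to -0.82.

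All 20 probe sets of Atp2b4 were negative, from -1.05 to -0.49 with a median of -0.75, and in all 20 the mutant arrays lay wholly lower, against 10.1% of all probe sets. Of them 11 were called, against 0.402% of all probe sets called lower, with limma adjusted p from 0.0202 to 0.0478. Without mutant 3 these 11 differed by -1.09 to -0.67 and 0 were called (limma adjusted p from 0.100 to 0.152), as in the whole table without any 1 array. Probe set 5236924 read 10.40, 10.57 and 10.48 in wild type and 9.34, 9.47 and 9.50 in the mutant, a difference of -1.05 ± 0.09. Probe set 4577974 differed by -1.05 ± 0.09 and 4922735 by -0.95 ± 0.08. Relative to the median of the gene's probe sets on each array, 5236924 read 1.34, 1.42 and 1.33 in wild type and 0.97, 1.05 and 0.92 in the mutant. It had the smallest p for exon usage in this gene and did not pass (limma adjusted p = 0.157).

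Atp2b2, the PMCA2 pump of Purkinje cells and hair cells, read 12.29, 12.31 and 12.33 in wild type and 12.29, 12.28 and 12.34 in the mutant. The arrays of the genotypes were interleaved. The 95% interval of its difference ran from -0.11 to 0.09 (log2, n = 3; adjusted p = 0.931 by limma), and its 27 probe sets ran from -0.15 to 0.14. Atp2b3, the PMCA3 pump, which is most abundant in brain, read 11.79, 11.78 and 11.78 against 11.80, 11.75 and 11.76. These values overlapped too, with a 95% interval from -0.11 to 0.09 (n = 3; adjusted p = 0.904 by limma). A test of the difference between Atp2b4 and these pumps was not run. Of its 25 probe sets 11 were negative and 14 positive, and of the probe sets of Atp2b2 and Atp2b3 0 were called by limma or reached an unadjusted p under 0.05.

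Slc8a1, the sodium-calcium exchanger NCX1, was lower at gene level but not in each of its probe sets. Row 6857639 read 10.31, 10.24 and 10.20 in wild type and 9.99, 9.88 and 9.99 in the mutant, a difference of -0.30 ± 0.06 (log2, SE, n = 3; adjusted p = 0.0398 by limma). Row 6857645, whose values equal those of the single probe set 4965203, read 9.51, 9.73 and 9.56 against 9.21, 9.19 and 9.32, a difference of -0.36 ± 0.07 (adjusted p = 0.0498 by limma). In both rows the groups did not overlap. Both calls were lost whichever array was left out, at limma adjusted p from 0.0858 to 0.113 and from 0.0709 to 0.147, with the differences between -0.26 and -0.41.

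Of the 14 probe sets of Slc8a1, 12 were negative, from -0.53 to -0.08, and 2 were positive. By limma 0 were called lower at exon level, so 4965203, which equals the called row 6857645, was not called there. Probe set 5114461 read 8.40, 8.34 and 8.17 in wild type and 8.89, 9.04 and 8.98 in the mutant. It was thus the only called probe set of these genes that was higher in the mutant, by 0.67 ± 0.09 (log2, SE, n = 3; adjusted p = 0.0388 by limma), against 0.603% of all probe sets called higher. Probe set 5313729 read 10.46, 10.57 and 10.48 against 10.87, 10.81 and 10.85, a difference of 0.34 ± 0.08 that did not pass (limma adjusted p = 0.102). In these 2 probe sets every mutant array lay above every wild-type array, as in 14.0% of all probe sets, while in 9 of the other 12 every mutant array lay below, as in 10.1% of all probe sets. The most negative, 4359359, read 10.23, 10.19 and 9.98 against 9.67, 9.53 and 9.61, a difference of -0.53 ± 0.10 (limma adjusted p = 0.0648). Without any 1 array, 5114461 differed by 0.60 to 0.72 and was not called, with limma adjusted p from 0.0843 to 0.142, and 0 probe sets of the whole table were called in those fits.

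**Figure D4:**
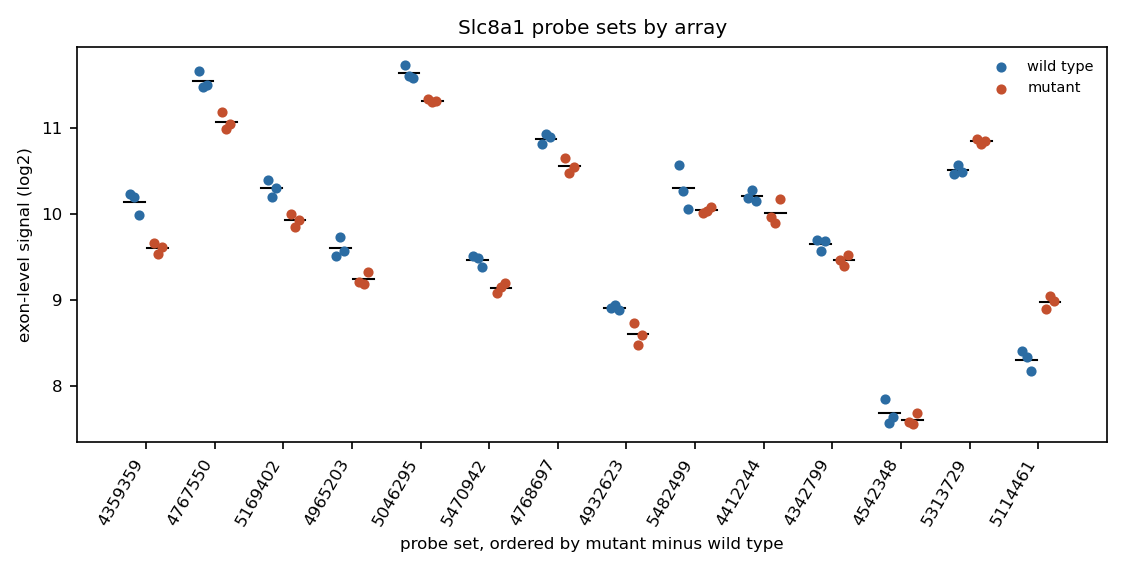
Value (log2) of each of the 14 Slc8a1 probe sets on the 3 wild-type and 3 mutant arrays, 1 point per array, with a bar at the mean of each genotype. The mutant points lie above the wild-type points in 5114461 and 5313729 and below or among them in the other 12.

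Exon usage was compared as the splicing index, a probe set's value minus the median of its gene's probe sets on the same array. A total of 397 probe sets in 8 of the genes met the filters on level, and 0 were called by limma, with 42 at an unadjusted p under 0.05. Of all 107214 probe sets tested 11933 reached that unadjusted p, 0.00187% were called lower and 0.00653% higher. The index of Slc8a1 5114461 was -1.81, -1.85 and -1.84 in wild type and -0.92, -0.64 and -0.79 in the mutant. The genotypes stood far apart for this probe set, by 1.05 ± 0.08 (log2, SE, n = 3), at a limma adjusted p of 0.0553. The index of Slc8a1 5313729 was 0.25, 0.38 and 0.46 against 1.06, 1.12 and 1.08, a difference of 0.72 ± 0.07 (limma adjusted p = 0.0625). Both passed with the mean of the probe sets as the gene's level (limma adjusted p = 0.00849 and 0.0327). They also passed with the median of the other probe sets, with trended and robust eBayes, and with limma's diffSplice (adjusted p = 4.26e-12 and 1.05e-05). Neither passed with quantile normalization (limma adjusted p = 0.0503 and 0.0616), array weights or the replicate block (0.468 each). Median centring cannot change an index taken within each array, so that fit equals the main one and is no further test. Without any 1 array neither passed (limma adjusted p from 0.211 to 0.378), and 0 of all probe sets tested were called. The diffSplice fit also called Ryr1 5616511 (adjusted p = 0.0031) and Slc8a1 4359359 (adjusted p = 0.0142), both lower. That fit pools the variance over a gene's probe sets, which share the same arrays and are not replicates of the genotypes. It called 1347 of the 107214 probe sets tested, against 9 in the main fit. Positions of the probe sets within their genes were not analysed here, so none is assigned to an exon. For Ryr2, whose probe sets moved together, the indices with the smallest p, 5380122 and 4533313, differed by -0.20 each and did not pass (limma adjusted p = 0.247 and 0.264).

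Other genes of calcium handling were compared from lists chosen by function, with earlier results of these data known and the 10 genes above left out. Of 95 genes listed 75 were measured at gene level, and 8 were lower, 0 higher and 67 not called by limma. At an unadjusted p under 0.05 stood 19 lower and 5 higher, beside 5368 of all 23332 gene-level rows. Over genes with 1 symbol 2.29% were called lower and 4.21% higher. The median difference of the listed genes was -0.06 and 49 of 75 were negative. Over all gene-level rows, which include rows without exactly 1 symbol, the median was 0.02 and 44.8% were negative. The 8 genes include partners of the channels described above: Itpr3, a further inositol trisphosphate receptor, Jph4, a junctophilin that ties the endoplasmic reticulum to the plasma membrane, and Fkbp1b, a ryanodine receptor-binding protein.

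Of 19 partners of calcium release, these 3 were lower. Itpr3 read 8.51 ± 0.09 (SD) in wild type and 7.76 ± 0.02 (SD) in the mutant (log2, n = 3 each), with an adjusted p of 0.00761 by limma. Jph4 differed by -0.50 ± 0.05 and Fkbp1b by -0.48 ± 0.09 (SE), with limma adjusted p of 0.0104 and 0.0365, and Itpr2 by 0.05 (adjusted p = 0.730). Of 8 sodium-calcium exchangers 1, Slc8a2, a neuronal relative of Slc8a1, was lower, by -0.42 ± 0.04 (limma adjusted p = 0.0118). Slc8a3, the remaining plasma membrane relative, differed by -0.35 ± 0.11 and did not pass (limma adjusted p = 0.137). Among 12 calcium buffers and sensors, Ncald and Ncs1, neuronal calcium sensor proteins, were lower, by -0.64 and -0.34. Among 8 effectors, the kinase Camk4 and its activator Camkk2 were lower, by -0.37 and -0.45. Limma adjusted p of these 4 ran from 0.0133 to 0.0255.

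In the other lists 0 genes were called by limma, and those with an unadjusted p under 0.05 were 2 genes of mitochondrial uptake and 5 of IP3 production and breakdown. The Golgi pump Atp2c1 and the SERCA inhibitor Sln differed by -0.11 each, and the plasma membrane pump partners Nptn and Bsg by -0.08 and 0.06. In store-operated entry, Trpc1 and Orai3 differed by -0.06 and 0.07. Of 6 genes of mitochondrial uptake 5 were positive, with Letm1 at 0.19 and Micu2 at 0.27, neither called. Of 10 genes of IP3 production and breakdown, Gna11, a G protein subunit that activates phospholipase C, differed by 0.24 and Plcb3, a phospholipase C, by -0.18. Plcb3 was lower at the threshold after quantile normalization or median centring. So was Asph, of the partners of calcium release, which differed by -0.21 as deposited (limma adjusted p = 0.053). The effector Ppp3cb was lower at the threshold after median centring only. With quantile normalization and median centring the count of lower genes was 10 and 11, with 0 higher.

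When 1 array was left out, between 1 and 5 of the listed genes were called. Of the 8 genes above, Itpr3 was called in all 6 of those fits (limma adjusted p from 0.0302 to 0.0482). Jph4 was called without wild type 1, 2 or 3, Ncald without wild type 1 or 3, and Slc8a2 and Camk4 without wild type 1. Fkbp1b, Ncs1 and Camkk2 were called in 0 of the 6. Without mutant 3 the 8 genes differed by -0.74 to -0.36, and the limma adjusted p of the 7 other than Itpr3 ran from 0.0506 to 0.102.

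**Figure D5:**
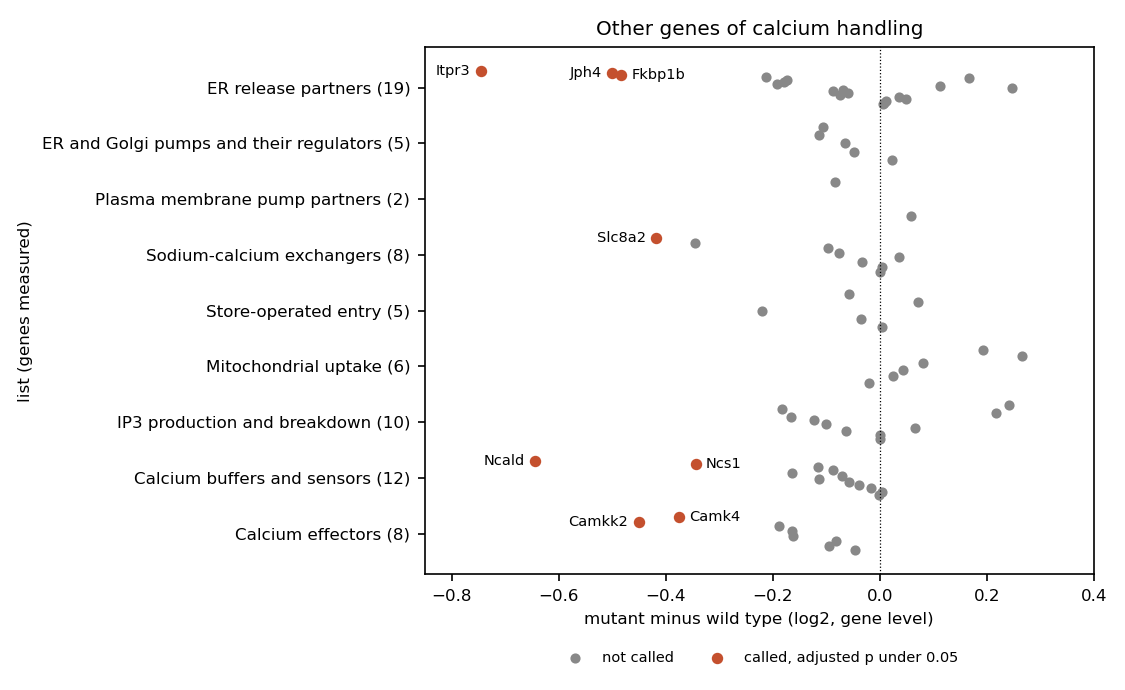
Gene-level difference between mutant and wild type (log2) of 75 other calcium-handling genes, 1 point per gene, in 9 lists with the number measured in brackets. The 8 called genes, named beside their points, all lie left of 0, at -0.34 or lower.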

How the data were processed

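Per the labels' protocols, cerebellar RNA was extracted with TRIzol and labelled for Affymetrix mouse exon arrays, 3 per genotype. The deposited values were read as log2, which their range fits. How the authors corrected background, normalized and summarised the probes is not given in the sources used here. An unstated normalization could shift differences between arrays. The submitters' processing notes name genome build mm8. Symbols are those of the platform annotation, and rows with several symbols were not used.

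Mutant and wild type were compared with limma 3.58.1 in R 4.3.3 (lmFit and eBayes, two-sided), with Benjamini-Hochberg adjustment over all rows of each table, a threshold of 0.05 and no filter. Exon usage used the splicing index in genes with at least 3 probe sets and a median of 8.55 or more, for probe sets with a mean of 7.06 or more. The members and lists were chosen with earlier results of these data known. Named were all 10 genes, up to 3 called probe sets each, the 2 smallest p for exon usage, called genes of the lists and the 2 smallest p in each. Other probe sets of Ryr3 and Slc8a1, and Ryr1 5056952, Itpr2, Asph, Ppp3cb and Gfap, were named after their values were seen. The scripts were tested on simulated data. Precision rests on 3 arrays per genotype.

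Alternatives were a replicate block, quantile normalization, median centring, a filter on low values, array weights, trended and robust eBayes, transcript clusters only, other gene levels for the splicing index, diffSplice and leaving out each array. Arrays of the same number did not deviate together (r = -0.01, -0.04 and 0.03 at gene level). Python 3.11.15 with matplotlib 3.10.9 drew the figures.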

Additional observations from a re-analysis of the deposited data

How the results depend on the processing

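The replicate block, used although the labels' numbers are not shown to pair the mice, left 0 calls in each of these counts: gene-level rows (1342 as reported), exon-level probe sets (2307), exon usage (9), the 4 calcium genes, their 34 probe sets and the 8 pathway genes, with 4787 rows and 34378 probe sets at an unadjusted p under 0.05 by limma. Its adjusted p for the called rows of Ryr2, Ryr3, Atp2b4 and Slc8a1 ran from 0.0793 to 0.136, at unchanged differences. The filter on low values gave 2148 gene-level rows, 8523 probe sets and 94 probe sets of the calcium genes. The trend and robust settings gave 2149 rows, 15561 probe sets, 209 for exon usage, 120 probe sets of the calcium genes (2 for exon usage) and 14 pathway genes. Array weights gave 15 for exon usage, the mean of the probe sets 165, the median of the other probe sets 161 and diffSplice 1347, and of these 0, 2, 2 and 4 were probe sets of the calcium genes. Transcript clusters only gave 15 pathway genes. Leaving out 1 array gave 76 to 496 gene-level rows, 0 probe sets at exon level or for exon usage, 1 to 3 of the calcium genes, 0 of their probe sets and 1 to 5 pathway genes. The difference of Atp2b2 changed sign under quantile normalization (0.024) and, among fits without 1 array, ran from -0.025 to 0.0027, with 0.00080 without wild type 3. The gene-level rows of Ryr1, Ryr2, Ryr3, Atp2a2, Atp2b3, Atp2b4 and Slc8a1 kept their sign under the 13 alternatives run for them; Itpr1 was not among them. The cause of these changes was not tested. The filter was not run apart for exon usage, whose test already holds it.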
